A study of Mus musculus with 6 samples.

Results

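Resting interstitial macrophages were described from the 3 libraries of mice given only phosphate-buffered saline (PBS), which are 3 of the 6 libraries in the series. They were chosen by their treatment label, and no library of another group enters any value given here. The donors were C57Bl/6 mice aged 6 to 8 weeks, housed free of specific pathogens, with no transgene or deleted allele in the labels. PBS was injected into the peritoneum over 6 days, and day 7 was the day of lung harvest. Digested lung was stained with fluorochrome-coupled antibodies, and the cells labelled interstitial macrophages were collected, but neither the antibodies nor the gate are named in the labels. Polyadenylated RNA was sequenced, and the libraries are named PBS replicates 1, 2 and 3 after their labelled numbers. How many mice went into each library is not in the labels, and which part of the spread between the 3 libraries is technical was not tested. Having a single group, these data allow no test between conditions, and the values below are levels with their spread.

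Lung macrophages fall into alveolar macrophages, which live in the air spaces and clear surfactant, and interstitial macrophages, which sit in the tissue around airways, vessels and nerves. Interstitial macrophages are known for complement C1q, the fractalkine receptor Cx3cr1 and antigen presentation on MHC class II, and a vessel-associated kind carries Lyve1 and Folr2. Nonclassical monocytes, which patrol the inside of capillaries, depend on the nuclear receptor Nr4a1 and share several of these genes, so a sort of lung tissue can hold both.

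The libraries held 19549252, 18910786 and 20346517 counts over 21965 genes. For 6847 of these (31.2%) all 3 PBS libraries were at 0. A gene without a count has an upper limit of 3 counts in a library, or 0.147 to 0.159 counts scaled to a common library total (CPM, the share of a library's counts multiplied by 1000000), and this limit covers counting error only. At least 1 CPM in every library was reached by 11294 genes. The counts were spread widely: the 10 most abundant genes took 6.29% ± 0.115 (SD, n = 3) of them, and between 721 and 751 genes made up 50% of a library. There were 95 genes at 1000 CPM or more, which held 21.4% of the counts, and 2183 genes at 100 to 1000 CPM, which held 52.8%. Levels of one gene across libraries are given in CPM. Levels of different genes are compared only in TPM, transcript units on the same scale, which divide the counts by the length of all exons of a gene, and they are given as mean ± SD with n = 3.

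By counts, the most abundant transcript was Lyz2, the lysozyme of macrophages, with 11351, 11498 and 11806 CPM in PBS replicates 1, 2 and 3. Its coefficient of variation over the libraries (CV, the SD over the mean) was 2.01%. Actb, cytoskeletal actin, followed with 9984, 9686 and 10009 CPM. Cd74, the invariant chain that guides MHC class II to the endosome, had 9527, 8791 and 9869 CPM, and Psap, the precursor of the saposins that help lysosomal enzymes break down sphingolipids, had 8122, 7344 and 8406 CPM. Both were lowest in PBS replicate 2 and highest in PBS replicate 3. The other genes among the 20 with the most counts were Eef1a1 and Eef2 of translation elongation, the RNA-destabilising protein Zfp36, the ferritin heavy chain Fth1, Nr4a1, the chitinase-like Chil3, the transcription factor Fos, the actin-binding Flna and Tmsb4x, B2m and H2-D1 of MHC class I, the intermediate filament Vim, the lysosomal membrane protein Laptm5, the MAP kinase phosphatase Dusp1, and the matrix proteins Thbs1 and Fn1. Of these, Thbs1 with 2226, 3383 and 2912 CPM, Chil3 with 3575, 4339 and 2873 CPM and Fth1 with 3875, 4383 and 3099 CPM differed most between libraries. PBS replicate 2 was the highest for all 3 of these genes. Per transcript length the order was led by Lyz2 at 30668 ± 536 TPM, Cd74 at 19551 ± 1122 TPM, B2m at 13104 ± 1199.8 TPM and Actb at 12902 ± 229 TPM, with Psap, Tmsb4x, Chil3, Eef1a1, the ferritin light chain Ftl1 and cathepsin S (Ctss) completing the first 10. Exons of 6 of the 20 genes (Cd74, Eef1a1, Zfp36, Dusp1, Thbs1 and Fn1) overlap an exon of another gene. Reads from overlapping genes cannot be told apart where the strand setting of the counting is not stated.

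**Figure D1:**
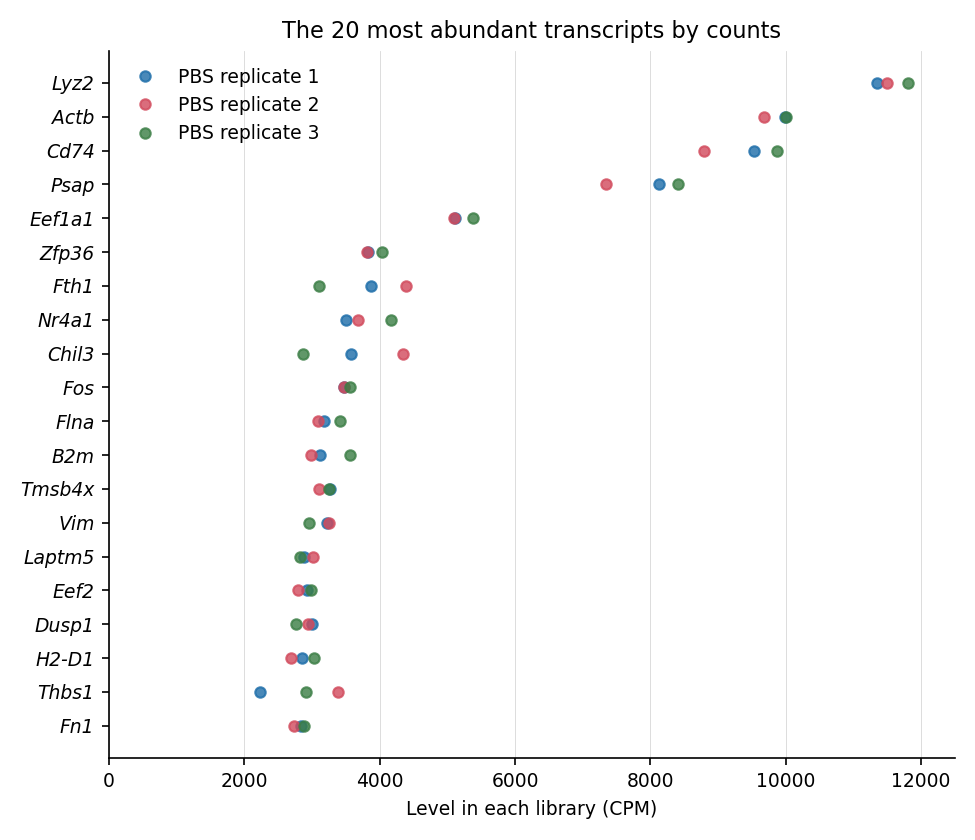
Level of the 20 genes with the most counts (horizontal axis, CPM, linear from 0) in each of the 3 PBS libraries (coloured points, 1 per library). The 4 leading genes lie above all others in every library, and the points of Chil3, Fth1 and Thbs1 are the most spread.

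All 6 genes used as markers of the sorted cell were present in every library, the lowest value being 92.2 CPM for Fcgr1 in PBS replicate 2. The exons of Ace, Csf1r and Cx3cr1 overlap an exon of another gene. Nr4a1, a nuclear receptor induced early after stimulation and needed for nonclassical monocytes, had 3509, 3684 and 4163 CPM. Ace, the angiotensin-converting enzyme, a surface marker of nonclassical monocytes in mice, had 2202, 2202 and 2545 CPM. Csf1r, the receptor for the growth factor that keeps monocytes and macrophages alive, had 2346, 2299 and 2675 CPM. In each of these the third library stood above the other two, which lay close together. C1qa, a chain of complement C1q, had 573, 461 and 575 CPM and was low in PBS replicate 2 alone. Cx3cr1, which binds fractalkine on endothelium and neurons, had 254, 204 and 346 CPM, and Fcgr1, the high-affinity IgG receptor CD64, had 98.8, 92.2 and 121 CPM. In CPM all 6 markers were highest in PBS replicate 3, against 34.8% of all genes at 5 CPM or more. C1qa was so by the narrowest margin, and the summed level of the 6 markers was 8983, 8942 and 10424 CPM.

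Per length the markers ran from Nr4a1 at 3769 ± 327 TPM through C1qa at 1802 ± 217 TPM, Ace at 1530.4 ± 127 TPM, Csf1r at 1476 ± 120.3 TPM and Cx3cr1 at 208 ± 55.6 TPM to Fcgr1 at 140.3 ± 19.9 TPM. In this order only 2 of 5 neighbouring pairs, Nr4a1 with C1qa and Csf1r with Cx3cr1, were separated beyond their spread, in that all 3 libraries of the one lay above all 3 of the other. Ace exceeded Fcgr1 by 11 ± 0.694-fold in TPM, and Nr4a1 exceeded C1qa by 2.11 ± 0.278-fold. The lengths matter here: with the longest transcript in place of all exons, C1qa was at 1375 TPM, Ace at 1259 TPM and Fcgr1 at 107 TPM. Csf1r was then at 1384 TPM, so that the order of the 3 neighbours C1qa, Ace and Csf1r turned to Csf1r, C1qa and Ace.

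The libraries thus carried the named markers, together with abundant transcripts known from other mononuclear phagocytes. Of 20 genes listed for nonclassical monocytes, 20 had a mean of at least 5 CPM and 18 of at least 100 CPM. Itgal, the integrin chain CD11a, had 2024, 1977 and 2332 CPM. Spn (CD43), a sialylated surface protein that is high on nonclassical monocytes, had 580.2, 549 and 688 CPM, and the receptor Treml4 had 311, 323 and 400.4 CPM. Adgre4, an adhesion G-protein-coupled receptor, had 422, 431 and 493 CPM. These 4 genes were all highest in PBS replicate 3, as were 13 of the 20, against 34.8% of all genes at 5 CPM or more (36.2% with TMM scaling). The list summed to 13083, 13443 and 14904 CPM, of which Nr4a1, also an immediate-early gene, was the largest member. Among genes of the same list, Cebpb, a transcription factor needed for the survival of these monocytes, was flat with 553, 594 and 541 CPM, and the Krüppel-like factor Klf4 had 504, 568 and 629 CPM.

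The list of interstitial macrophage genes, which shares no gene with that of nonclassical monocytes, summed to 6605, 5170.0 and 6449 CPM, and of its 20 genes 19 had a mean of at least 5 CPM and 11 of at least 100 CPM. Apoe, the lipid carrier of macrophages, led it with 3069, 2293 and 2839 CPM. C1qb and C1qc, the other chains of C1q, had 564, 453 and 562 CPM and 528, 398 and 523 CPM. Maf, a transcription factor of the macrophage state, had 109, 72.3 and 98.8 CPM. In each of these 4 genes PBS replicate 2 was the lowest, as it was for 16 of the 19 genes at 5 CPM or more. With TMM scaling, which multiplies each library total by 1 factor, PBS replicate 2 was the lowest for 15 of them. Such a factor does not remove differences in cell make-up. Over all 9769 genes at that level, PBS replicate 2 was the lowest in 41.5% (36.0% with TMM scaling). Ms4a7, a membrane protein of tissue macrophages, had 32.2, 25 and 31.3 CPM, and Tmem119 and Trem2 were low, at 26.3 ± 2.12 and 24.6 ± 1.26 TPM. Il10, an inhibitory cytokine, had 3.22, 1.48 and 2.60 CPM. The 3 C1q chains kept a near constant ratio: C1qa over C1qb was 1.06, 1.07 and 1.07 in TPM, although both genes themselves had a CV of 12.1%. C1qa over C1qc was 2.07 ± 0.0740 (SD, n = 3) with all exons and 1.29 with the longest transcripts.

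Genes of the vessel-associated Lyve1 kind were also present. Lyve1, a hyaluronan receptor, had 137, 98.5 and 129 CPM, the folate receptor Folr2 had 59.8, 48 and 70.6 CPM, and Timd4, a receptor for phosphatidylserine on dying cells, had 32.8, 22.1 and 36.4 CPM. Cd163, the receptor for haemoglobin bound to haptoglobin, had 226, 156 and 233 CPM. PBS replicate 2 was the lowest in these 4 genes and in 12 of the 14 in the list. It was the lowest for 41.5% of all genes at 5 CPM or more (36.0% with TMM scaling). The exceptions were Mrc1, the mannose receptor, with 951, 924 and 736 CPM, and the lectin Clec4n with 120.1, 148 and 96.6 CPM, both lowest in PBS replicate 3. The summed level of the list was 2585, 2285 and 2587 CPM.

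Genes listed for alveolar macrophages summed to 8415, 9754 and 6439 CPM. The largest member, Chil3 with 3575, 4339 and 2873 CPM, is also on the classical monocyte list, and Ear2 with 634, 666 and 503 CPM is also on the nonclassical monocyte list, so the sum is not that of alveolar macrophages alone. Of the 20 genes listed, 19 were lowest in PBS replicate 3, against 34.98% of all genes at 5 CPM or more. Plet1, a surface protein high in alveolar macrophages, had 468, 603 and 276 CPM. Cidec, which enlarges lipid droplets, had 108, 134 and 60.7 CPM, and the proton pump subunit Atp6v0d2 had 323, 343 and 194 CPM. Siglecf, the lectin by which alveolar macrophages are usually gated, had 108, 121 and 72.6 CPM, and Marco, a scavenger receptor for particles, had 125, 119 and 85 CPM. All 5 had their lowest value in PBS replicate 3. Fabp4 was the exception, with 68.2, 80.7 and 85.3 CPM. The ratio of Chil3 to C1qa in TPM was 3.98, 5.99 and 3.19 in PBS replicates 1, 2 and 3. In bulk RNA a smaller number of cells of a type cannot be told apart from less RNA per cell, and the part of such cells in other results was not tested.

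Classical monocyte genes included Ly6c2, the antigen that defines these cells in mice, with 181, 147 and 267 CPM, and Ccr2, the receptor that draws them out of the bone marrow, with 238, 218 and 314 CPM. Plac8 had 737, 686 and 989 CPM. All 3 were highest in PBS replicate 3 and lowest in PBS replicate 2. The sum of the list did not follow them, at 9080.2, 9769.5 and 9127 CPM. Of its 15 genes, 9 were highest in PBS replicate 3, against 34.8% of all genes at 5 CPM or more. PBS replicate 2 was the lowest for 9 of the 15, against 41.5% of all genes. The largest member of the list, Chil3, was highest in PBS replicate 2. Reads of Ly6c2 can be shared with the near-identical Ly6c1, so its level is less certain.

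**Figure D2:**
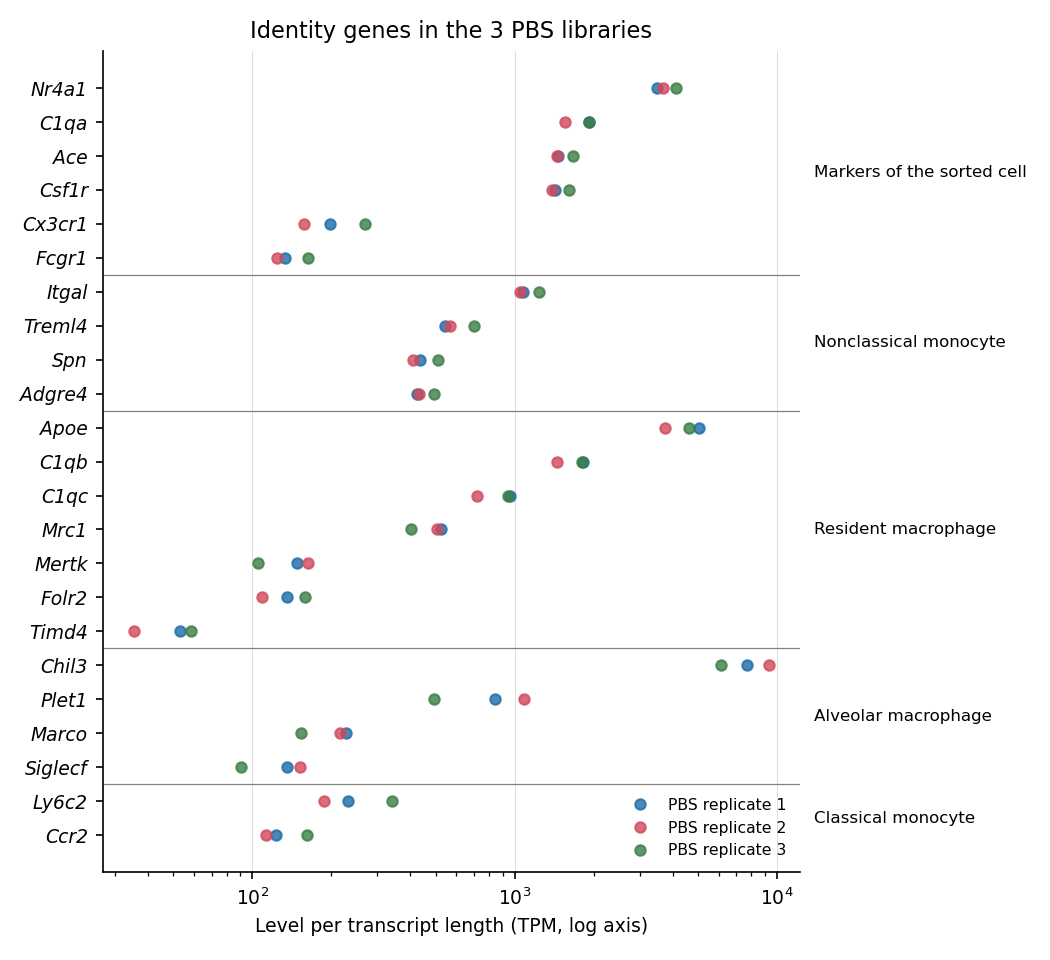
Level per transcript length (horizontal axis, TPM, log scale) of identity genes in each PBS library (coloured points, 1 per library), grouped by the cell they are known from. Points of PBS replicate 3 lie highest for the markers other than C1qa, which is level in PBS replicates 1 and 3, and for the nonclassical monocyte genes and lowest for the 4 alveolar macrophage genes.

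Immediate-early genes, which are transcribed within minutes of a stimulus without new protein synthesis, took 2.42% of all counts, and 8 of the 22 listed were among the 100 genes with the most counts. Their sum hardly differed between libraries, at 23782, 24478 and 24453 CPM. Zfp36, which speeds the decay of cytokine mRNAs, had 3825, 3814 and 4036 CPM. Fos, a subunit of the transcription factor AP-1, had 3468, 3478 and 3565 CPM, and Dusp1, which switches off MAP kinases, had 2995, 2934 and 2763 CPM. Together with Nr4a1 these were the 4 immediate-early genes among the 20 with the most counts. The AP-1 subunit Junb had 1835, 1561 and 1509 CPM and its relative Jun had 1179, 1317 and 1491 CPM. Their orders ran oppositely, with PBS replicate 1 the highest for Junb and the lowest for Jun. Egr1, a zinc finger factor, had 1039.8, 1101 and 894 CPM, and Atf3, a repressor induced by stress, had 687, 873 and 895 CPM. None of the 22 genes was among the 5% most variable of all genes at 5 CPM or more, and their median CV was 10.6%, beside 9.03% for all those genes.

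Nr4a1 stood far above the other Nr4a receptors, which did not differ beyond their spread. Nr4a1 was at 3769 ± 327 TPM, Nr4a2 at 56.2, 68 and 76.1 TPM in the 3 libraries, and Nr4a3 at 54 ± 5.76 TPM, so that Nr4a1 exceeded its relatives by 56.9 ± 4.72-fold and 70.6 ± 12.2-fold in TPM. The sequences upstream of the 4 most abundant immediate-early genes are shown because these genes are among the 20 with the most counts and because signals through cAMP and through serum response factor are textbook routes to their induction. Each is the 250 bases before the start in RefSeq (GRCm38.p6), 5′ to 3′ on the strand of the gene, and capitals mark the motif TGACG, the core of the cAMP response element, searched on both strands (CGTCA on the other), or, in Zfp36, the CArG box of serum response factor. The windows are chr15:101266596-101266845 (plus strand) for Nr4a1, chr12:85473640-85473889 (plus) for Fos, chr17:26508473-26508722 (minus) for Dusp1 and chr7:28379229-28379478 (minus) for Zfp36.
Nr4a1: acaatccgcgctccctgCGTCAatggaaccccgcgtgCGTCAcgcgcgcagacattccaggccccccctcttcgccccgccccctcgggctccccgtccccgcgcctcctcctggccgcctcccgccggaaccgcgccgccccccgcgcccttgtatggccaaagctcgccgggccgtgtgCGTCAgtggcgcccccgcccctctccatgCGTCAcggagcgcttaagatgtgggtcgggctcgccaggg
Fos: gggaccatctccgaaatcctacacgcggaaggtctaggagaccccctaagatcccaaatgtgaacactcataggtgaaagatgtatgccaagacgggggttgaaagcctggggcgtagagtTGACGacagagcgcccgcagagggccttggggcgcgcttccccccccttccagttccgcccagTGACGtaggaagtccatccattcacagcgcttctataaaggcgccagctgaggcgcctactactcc
Dusp1: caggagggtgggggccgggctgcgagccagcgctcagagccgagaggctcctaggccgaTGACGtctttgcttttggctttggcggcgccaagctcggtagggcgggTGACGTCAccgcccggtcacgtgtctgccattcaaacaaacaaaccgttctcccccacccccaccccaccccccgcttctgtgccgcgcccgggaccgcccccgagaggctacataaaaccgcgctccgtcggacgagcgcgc
Zfp36: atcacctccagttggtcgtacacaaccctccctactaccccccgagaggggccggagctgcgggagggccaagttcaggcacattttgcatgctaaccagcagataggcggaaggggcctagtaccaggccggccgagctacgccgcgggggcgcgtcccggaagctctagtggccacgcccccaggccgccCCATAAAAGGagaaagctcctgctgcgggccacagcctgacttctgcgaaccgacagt
TGACG or its reverse complement was found 4 times before Nr4a1, 2 times before Fos and 3 times before Dusp1, where a palindromic element counts for 2 overlapping matches. It was not found in this window of Zfp36, whose single CArG box was the only exact one among the 19 immediate-early promoters. Sites with a mismatch or outside the 250 bases were not searched for, and Egr1, Egr3 and Ier2 were not searched. Of 19 promoters matched for the 22 genes, 9 held TGACG, against 17.9% of 32536 promoters of the same length, and 1 held a CArG box, against 1.48%. Nr4a2 and Nr4a3, which were far less abundant, also held 4 matches each, so the number of matches did not follow the level. A match describes the letters only and shows no binding.

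For 4 of the 6 markers the promoter was taken from the same RefSeq source, while C1qa and Csf1r were not searched. There the motif GAGGAAG, a form bound by the macrophage factor PU.1 and other ETS proteins, was searched on both strands (CTTCCTC on the other) and is in capitals. The windows of the markers that hold it, Ace at chr11:105967698-105967947 (plus strand) and Fcgr1 at chr3:96293970-96294219 (minus strand), were as follows.
Ace: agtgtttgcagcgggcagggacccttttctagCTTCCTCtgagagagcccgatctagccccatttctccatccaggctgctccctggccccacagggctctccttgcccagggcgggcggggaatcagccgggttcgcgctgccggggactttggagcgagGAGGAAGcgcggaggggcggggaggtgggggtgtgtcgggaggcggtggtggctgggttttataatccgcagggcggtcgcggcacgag
Fcgr1: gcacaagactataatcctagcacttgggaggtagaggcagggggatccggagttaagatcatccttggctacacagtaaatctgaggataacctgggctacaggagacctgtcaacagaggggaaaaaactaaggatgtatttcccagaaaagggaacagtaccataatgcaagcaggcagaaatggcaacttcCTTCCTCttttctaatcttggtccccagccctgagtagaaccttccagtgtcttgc
Ace held 2 matches, 1 on each strand, and Fcgr1 held 1, whereas the windows of Cx3cr1 and Nr4a1 held 0. GAGGAAG was found in 10.7% of all promoters of this length and in 6 of 13 promoters matched for the interstitial macrophage list. Of the 2 markers with a match, Fcgr1 was the lowest of the 6 per length and Ace stood above it, with Ace at 1530.4 ± 127 TPM and Fcgr1 at 140.3 ± 19.9 TPM.

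Among transcription factors of macrophages, 35 of 38 had a mean of at least 5 CPM and 26 of at least 100 CPM. Next to Nr4a1 the highest per length were Cebpb at 1306 ± 65.6 TPM, Klf6 at 757 ± 112 TPM, Klf4 at 649.6 ± 70.0 TPM and Spi1, which encodes PU.1, at 643 ± 39.3 TPM. Spi1 had 504, 462 and 522 CPM and Irf5, a driver of inflammatory genes, had 496, 459 and 588 CPM, both highest in PBS replicate 3. Zeb2, which keeps tissue macrophage identity, had 489, 492 and 554 CPM. Pparg, the factor that alveolar macrophages need, was lower at 144 ± 21.9 TPM and lowest in PBS replicate 3, with 129, 135 and 101 CPM. No factor in the list belonged to the 5% most variable genes.

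Antigen presentation was prominent. H2-Aa, H2-Ab1 and H2-Eb1, the chains of MHC class II, had 2707, 2424 and 2751 CPM, 2715, 2397 and 2767 CPM and 2556, 2396 and 2591 CPM. Cd74 exceeded H2-Ab1 by 5.48 ± 0.123-fold in TPM, and H2-Ab1 exceeded H2-Aa, its partner in the I-A dimer, by 1.48 ± 0.0131-fold. With the longest transcripts these ratios were 3.08 and 2.66. The list of class II genes summed to 20607, 18965 and 21032 CPM, with 8 of 11 genes lowest in PBS replicate 2, against 41.5% of all genes. For class I, B2m, the light chain, had 3122, 2989 and 3567 CPM and the heavy chain H2-K1 had 1659, 1414 and 1849 CPM. Nlrc5, the activator of class I genes, differed more, with 137, 83.8 and 180.2 CPM, and the peptide transporter Tap1 had 189, 142 and 234 CPM. In these 4 genes the order was the same, lowest in PBS replicate 2 and highest in PBS replicate 3. Reads of the near-identical H2 genes can be lost or shared in counting.

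Receptors for antibody and the adaptors they signal through were abundant. Fcer1g and Tyrobp, adaptors that carry the signal of activating receptors, had 763, 818 and 871 CPM and 997, 1047 and 1024 CPM. The low-affinity IgG receptor Fcgr3 had 587, 618 and 559 CPM and the inhibitory Fcgr2b had 563, 553 and 541 CPM. Fcgr4, an IgG receptor high on nonclassical monocytes, had 245, 305 and 250.4 CPM. In TPM the order was Fcer1g (3267 ± 208), Fcgr3 (1183 ± 60.3), Fcgr4 (743 ± 93), Fcgrt, Fcgr2b, Fcrls and Fcgr1, and all 9 neighbouring pairs of the 10 listed genes were separated beyond their spread. Complement C3 had 620.3, 689.8 and 869.6 CPM and the receptor for C5a, C5ar1, had 312, 396 and 239 CPM. C3 was highest and C5ar1 lowest in PBS replicate 3.

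Integrins that pair with Itgb2, the β2 chain, were unequal. Itgb2 itself was at 2395 ± 33.5 TPM, Itgal (CD11a) at 1123 ± 99.6 TPM, Itgax (CD11c) at 558 ± 38 TPM and Itgam (CD11b) at 169.8 ± 1.78 TPM. Itgal thus stood at 0.469 ± 0.0426 of Itgb2, Itgax at 0.233 ± 0.0164 and Itgam at 0.0709 ± 0.00123 (SD, n = 3). No library of one α chain overlapped those of another. Cd9, a tetraspanin, was the least steady of the adhesion genes above 100 CPM, with 871, 1059 and 609 CPM, and Itgb1 among the steadiest, with 612, 606 and 609.9 CPM.

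For sensing of microbes, Syk, the kinase below many lectins and Fc receptors, had 1079, 1174 and 1007 CPM. Cd14, which hands lipopolysaccharide to Toll-like receptor 4, had 535, 794 and 522 CPM, and Tlr2, a receptor for bacterial lipopeptides, had 495, 629 and 523 CPM. Both were highest in PBS replicate 2. Tlr13, a receptor for bacterial ribosomal RNA, had 333, 303 and 372 CPM, and Tlr7, a receptor for single-stranded RNA, had 214, 194 and 232 CPM. The lectins Clec4e and Clec4d, which recognise mycobacterial lipids, belonged to the most variable 5% of genes, with 198, 359 and 207 CPM and 119, 153 and 64 CPM. The β-glucan receptor gene Clec7a was not analysed here.

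The uptake and digestion of cells and particles was represented by Lrp1, a large endocytic receptor, with 2726, 2707 and 2616 CPM, and by Axl, which with Mertk recognises dying cells, with 762, 718 and 585 CPM. Mertk had 183, 203 and 131 CPM and, like Axl, was lowest in PBS replicate 3. Of the 26 lysosomal genes, 22 were at 100 CPM or more and 6 were among the 100 genes with the most counts. Ctss had 2307, 2261 and 2259.6 CPM and Ctsb had 2531, 2517 and 2671 CPM. The aspartic protease Ctsd was less steady, with 1211, 1318 and 881 CPM. The median CV of the lysosomal genes was 4.47% and that of 8 genes of the phagocyte oxidase, which makes superoxide, 5.14%. The catalytic subunit Cybb had 1697, 1739 and 1936 CPM, and its membrane partner Cyba exceeded it by 1.41 ± 0.0521-fold in TPM.

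In the handling of lipids and iron, Abcg1, a cholesterol exporter, had 861, 848 and 561 CPM and Lpl, lipoprotein lipase, had 602, 716 and 463 CPM, both lowest in PBS replicate 3. Plin2, which coats lipid droplets, had 714, 827 and 654 CPM. Scd1, a fatty acid desaturase, stood out in PBS replicate 2, with 36.1, 75.5 and 34.1 CPM. Ftl1 had 2604, 2599.6 and 2384 CPM and was steadier than Fth1. Hmox1, which breaks down heme, had 342, 468 and 303 CPM, and Slc40a1, the iron exporter, had 56.1, 30.1 and 33 CPM. The former was highest in PBS replicate 2 and the latter in PBS replicate 1.

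Transcripts of several inflammatory genes were present in the cells of these mice given only PBS. Whether these, the immediate-early transcripts and the heat shock transcripts given below arose before harvest or during digestion and sorting was not tested. Il1b, a pyrogenic cytokine, had 1586, 2019 and 1265 CPM, highest in PBS replicate 2 and lowest in PBS replicate 3. Tnf had 82.6, 90.7 and 101 CPM, and Il6 and Il12b were near the lower end, with 5.17, 8.36 and 3.05 CPM and 2.20, 2.17 and 2.26 CPM. Per length Il1b stood at 2974 ± 697 TPM and Tnf at 195 ± 19.2 TPM. Inhibitors of NF-κB were present throughout, with 496, 482 and 475 CPM of Nfkbia and 541, 603 and 580.2 CPM of Tnfaip3. Ptgs2, which makes prostaglandins, had 327, 376 and 218 CPM.

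Among chemokines, Ccl6 had 1465, 1573 and 1198 CPM and Ccl9 had 443, 438 and 467 CPM. Cxcl2, which attracts neutrophils, had 380.1, 569 and 289 CPM, and Ccl3, a ligand of Ccr1, had 248, 394 and 327 CPM. Both were highest in PBS replicate 2. Cxcl13, which attracts B cells and is made by some interstitial macrophages, had 64.2, 24.5 and 49.7 CPM and was lowest there. Ccl8 had 9.82, 4.49 and 14.1 CPM and Ccl12 6.80, 3.49 and 6.93 CPM. On the side of the receptors, Cxcr4 led per length at 2103 ± 185 TPM with 979.8, 1168 and 1117 CPM, followed by C5ar1 at 429 ± 108 TPM. Ccr1 had 152, 202 and 102 CPM and was lowest in PBS replicate 3.

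Growth factors and matrix proteins were led per length by Retnla, a resistin-like secreted protein, at 2339 ± 459 TPM, Thbs1 at 1634 ± 333 TPM, Grn, the precursor of granulins, at 875 ± 26.7 TPM and Fn1 at 843 ± 22.4 TPM. Tgfb1, which restrains inflammation and drives matrix deposition, had 582, 443 and 559 CPM, and Osm had 275, 399.8 and 275 CPM. Arg1, an enzyme of alternatively activated macrophages, was low, with 10.1, 1.90 and 6.68 CPM. Igf1, a trophic factor of interstitial macrophages, had 43.4, 30.6 and 45.9 CPM. Both Arg1 and Igf1 were lowest in PBS replicate 2. Of inhibitory receptors Sirpa, which receives the signal of CD47, was at nearly the same level in all libraries, with 1193, 1183 and 1181 CPM, and the PD-1 ligand Cd274 had 159, 169 and 175 CPM.

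Genes of basic cell functions set the scale for the spread. Over the 9769 genes at 5 CPM or more the median CV was 9.03%, with an interquartile range of 5.28% to 15%, whereas counting alone would give a median of 3.64%. The 22 actin cytoskeleton genes had a median CV of 3.78%, those of translation and splicing 3.35% and the 76 cytosolic ribosomal protein genes 4.79%. The glycolytic enzyme Gapdh had 542, 537 and 527 CPM. Ribosomal protein genes differed little but in 1 direction, with 67 of 76 highest in PBS replicate 3 (69 with TMM scaling), against 34.8% of all genes. Their sum was 29670.0, 29475 and 31652 CPM. The biological coefficient of variation, an estimate of the spread beyond counting noise, was 0.151 over 11892 genes. Its trend was 0.267 for genes at 1 to 10 CPM and 0.0998 for genes at 100 to 1000 CPM.

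The 15 genes with the lowest CV at 20 CPM or more included Clip1, Cers2, Mgst1, Ice1, U2af2, Nup210, Ezh1, Son, Pcmtd1, Dnajb11, Heca, Cdc73, Ganab and Ppp1r2. Son, a splicing cofactor, for example had 567, 564 and 566 CPM. The CV of each of these 15 lay below that of counting alone, so their order carries no information. Of all genes at 5 CPM or more, 250 (2.56%) differed by 2-fold or more between the highest and the lowest library.

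**Figure D3:**
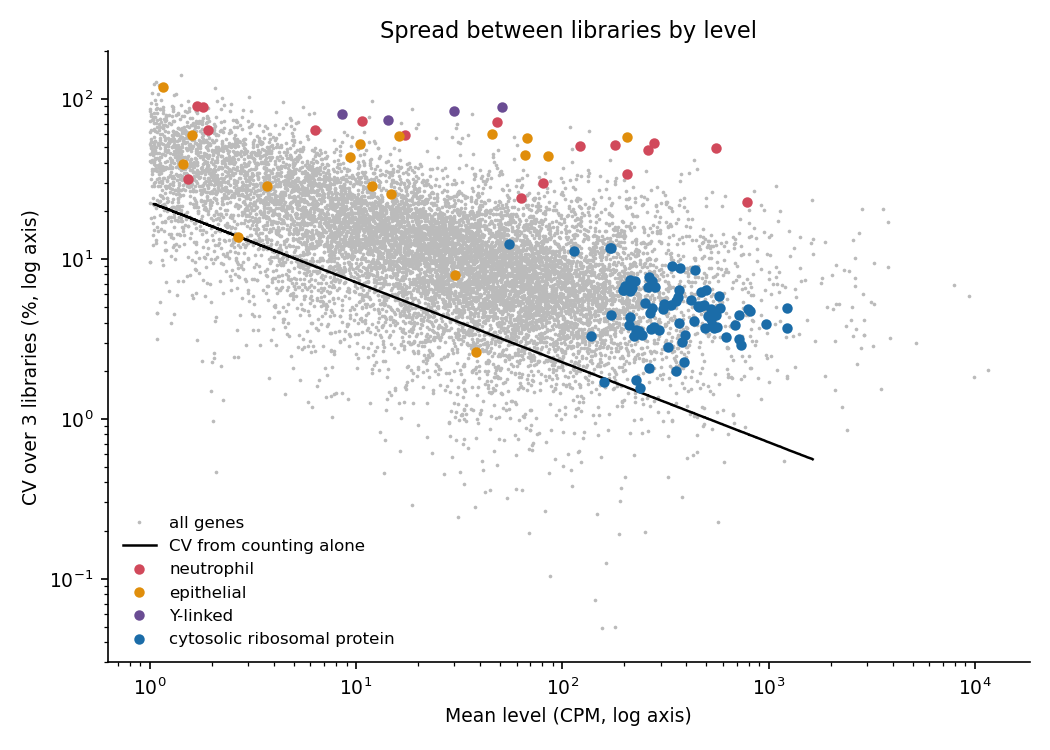
CV over the 3 PBS libraries (vertical axis, percent, log scale) against mean level (horizontal axis, CPM, log scale) for genes at 1 CPM or more (grey points), with the running median of the CV that counting alone would give (black line). Neutrophil, epithelial and Y-linked genes (coloured points) mostly lie above the grey cloud at their level, and ribosomal protein genes lie within it.

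The 3 libraries were not equally far apart. On log2(CPM + 2), the correlation across genes was r = 0.989 between PBS replicates 1 and 2, 0.989 between 1 and 3 and 0.983 between 2 and 3, where genes are not independent replicates. Differences of over 1.5-fold were found for 539 genes (5.52%) between PBS replicates 2 and 3, for 338 (3.46%) between 1 and 2 and for 275 (2.82%) between 1 and 3. The chi-square of their counts, divided by its degrees of freedom, ran from 16.1 to 31.4, where counting noise alone would give about 1.

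Among the genes with the highest CV were several known from neutrophils and epithelium, and which cells their transcripts came from was not tested. Neutrophil genes summed to 2667, 3628 and 1574 CPM, and 11 of the 13 at 5 CPM or more were among the most variable 5%, that is, had a CV above 29.4%. S100a9 and S100a8, the calprotectin subunits, had 547, 833 and 287 CPM and 292, 415 and 124 CPM. Cxcr2, the receptor that draws neutrophils to chemokines, had 144, 170.1 and 52.4 CPM, the decoy receptor Il1r2 had 158, 283 and 101 CPM and the siderophore-binding Lcn2 had 37.4, 86.7 and 20.2 CPM. All 13 genes were lowest in PBS replicate 3, against 34.98% of all genes. PBS replicate 2 was the highest for 12 of them, including all 5 named here, against 29.9% of all genes (34.8% with TMM scaling). Ly6g, the antigen that defines neutrophils, was low, with 1.23, 3.33 and 1.18 CPM, and the granule gene Mpo had 1.69, 0.159 and 3.24 CPM. Acod1, which makes itaconate, with 107, 228 and 67.1 CPM, Lrg1 with 26.2, 70.3 and 13.6 CPM, Chil1 with 23.4, 53.1 and 14.9 CPM, Asprv1, Arg2, Il1f9, Ifitm1, Rdh12 and Prg4 were further genes of the highest CV that shared this order.

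Epithelial genes followed the same order less completely. Their sum was 526, 885 and 423 CPM. The surfactant genes Sftpc, with 139.6, 341 and 135 CPM, and Sftpa1, with 47, 111 and 43 CPM, stood out in PBS replicate 2 alone, as did the phosphate transporter Slc34a2 of type II cells with 30.8, 77.1 and 28.7 CPM. Cxcl15, a chemokine of lung epithelium, had 14.5, 36 and 9.78 CPM. Scgb1a1 of club cells had 122, 84.3 and 47.8 CPM and did not share this pattern. Epcam, the usual gating antigen of epithelium, had 19.2, 12.5 and 12.8 CPM. The sum of the endothelial list, which includes Lyve1, was more even at 819, 752 and 768 CPM. Its genes at 5 CPM or more had a median CV of 14.8%, beside 9.03% for all such genes. Of 12 eosinophil, basophil and mast cell genes 2, Kit and Gata2, had a mean of 5 CPM or more, and Epx, Fcer1a and Mcpt4 had no count in any library.

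T and NK cell genes were low, summing to 338, 226 and 286 CPM, and 9 of the 13 at 5 CPM or more were lowest in PBS replicate 2, against 41.5% of all genes at that level. Cd4 had 87, 21.5 and 66.7 CPM, Cd8a had 12.4, 2.49 and 11.4 CPM and Tcf7, a factor of naive T cells, had 43.3, 12.4 and 39.9 CPM. Cd3e, part of the T cell receptor complex, had 12.3, 5.98 and 8.80 CPM. Vcam1, an adhesion molecule, with 170.1, 29.3 and 126 CPM, and the phospholipase Pla2g2d, with 48.3, 11.2 and 45.8 CPM, shared the low value in that library. Jchain, the joining chain of secreted antibodies, was instead high in PBS replicate 1 alone, with 55.3, 21.6 and 15.6 CPM. Cell cycle genes were also lowest in PBS replicate 2, in 15 of 20 genes, and Mki67 had 120.0, 70.4 and 109 CPM and Top2a 60.4, 28.9 and 43.6 CPM. Flt3, the receptor of dendritic cells and their precursors, had 66.2, 31.6 and 52.1 CPM, and 11 of 14 dendritic cell genes were lowest in the same library, the share of all genes being the 41.5% above.

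**Figure D4:**
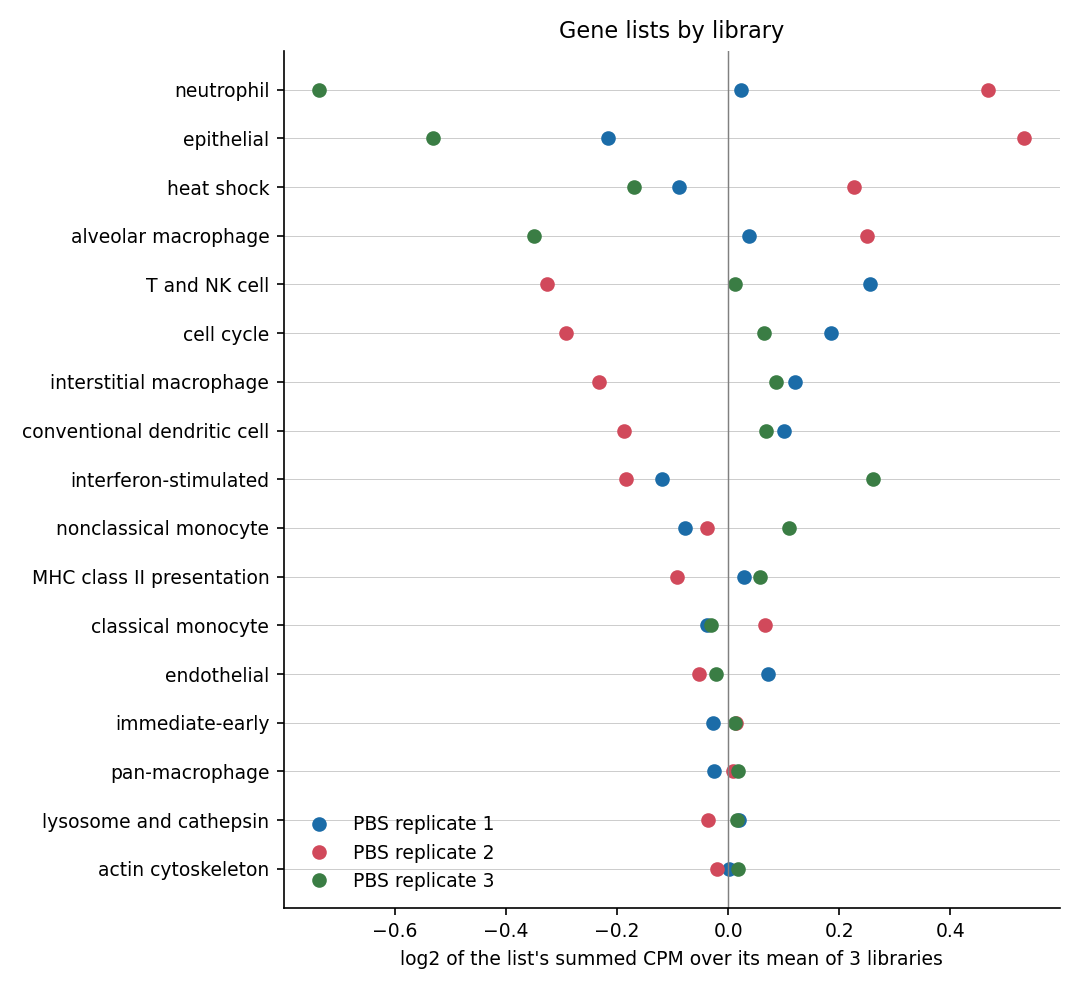
Summed CPM of 17 gene lists in each PBS library (coloured points), as log2 of its ratio to the mean of the 3 libraries (horizontal axis). Neutrophil, epithelial, heat shock and alveolar macrophage lists are highest in PBS replicate 2 and lowest in PBS replicate 3, and the lists at the bottom, among them the immediate-early list, lie close to 0.

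Y-linked transcripts separated PBS replicate 3 from the others. Ddx3y had 53, 94.6 and 4.82 CPM and Eif2s3y had 35.8, 51.2 and 2.21 CPM, and the 4 detected Y-linked genes summed to 118, 182 and 10.1 CPM. Their X-linked homologues Ddx3x, Eif2s3x, Kdm5c and Kdm6a summed to 793, 803 and 915 CPM. Each was highest in PBS replicate 3, as were 34.8% of all genes at 5 CPM or more (36.2% with TMM scaling). The sex of the mice is not in the labels, and Xist was not analysed here. A difference in Y-linked level thus goes along with every difference between PBS replicate 3 and the other libraries, and its part in them was not tested.

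Heat shock and interferon responses differed between the same libraries. All 14 heat shock genes were highest in PBS replicate 2, against 29.9% of all genes, and their sum was 10570.0, 13152 and 9998 CPM. Hspa1b and Hspa1a, the inducible Hsp70 genes, had 958, 1429 and 854 CPM and 847, 1142 and 762 CPM, and their reads can be shared because they are near-identical. Hsph1, a cochaperone of Hsp70, had 327, 523 and 282 CPM, and the constitutive Hspa8 had 2442, 2950.0 and 2316 CPM. Interferon-stimulated genes were highest in PBS replicate 3 in 24 of 25 cases, against 34.8% of all genes, and summed to 2906, 2778 and 3779 CPM. The antiviral Ifitm3 had 782, 758 and 996 CPM, Irf7 had 223, 207 and 308 CPM and Zbp1, a sensor of Z-form nucleic acid, had 114, 102 and 184 CPM. Cxcl10, an interferon-induced chemokine, had 15.6, 8.73 and 24.1 CPM. With TMM scaling the counts of 14 and 24 genes were the same, while the share of all genes highest in PBS replicate 3 was 36.2%.

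Set directly against each other, PBS replicates 2 and 3 differed by a median log2 ratio of 1.51 over 13 neutrophil genes, 0.65 over 20 alveolar macrophage genes and 0.42 over 14 heat shock genes, beside -0.024 over all genes at 5 CPM or more. The median was -0.39 for interferon-stimulated genes, -0.55 for the Lyve1-type list and -0.31 for the interstitial macrophage list. Immediate-early genes were centred on 0, with a median of 0.0066. These medians describe 2 libraries and were not tested.

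**Figure D5:**
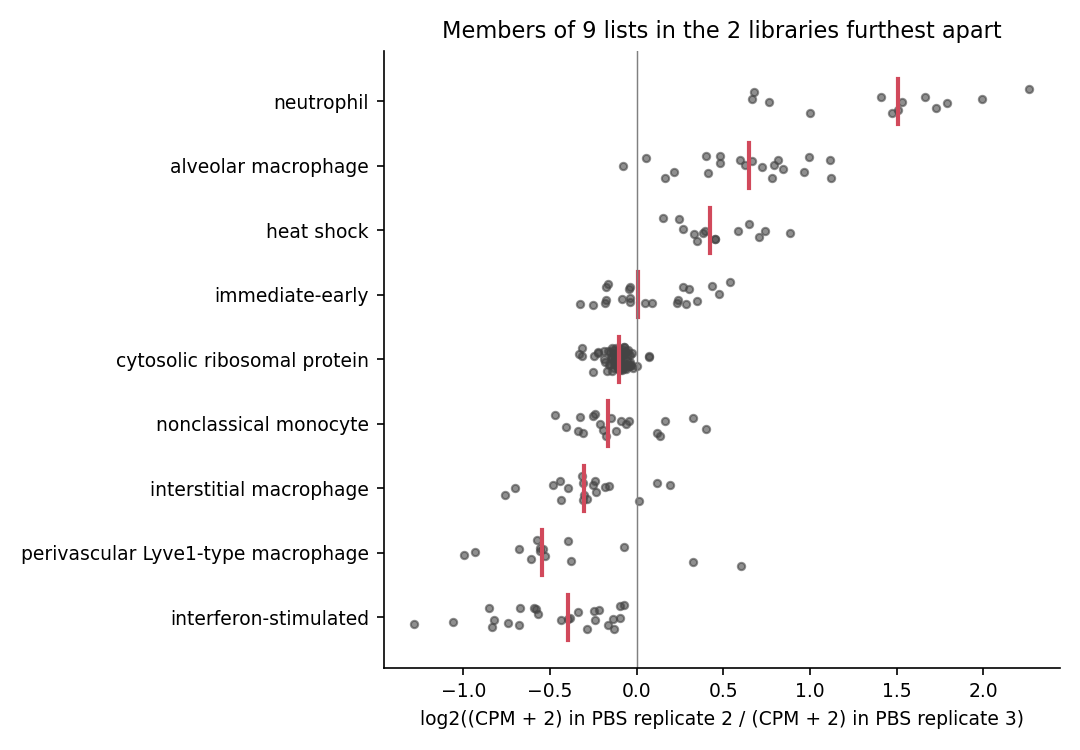
Each point is a gene of mean CPM 5 or more, placed by log2 of (CPM + 2) in PBS replicate 2 over (CPM + 2) in PBS replicate 3 (horizontal axis), in 9 lists (rows), and red bars are the medians. All neutrophil and heat shock genes lie to the right of 0 and all interferon-stimulated genes to the left.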

How the data were processed

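Bulk RNA-seq of sorted lung cells was taken from the authors' deposited table of raw counts per gene, whole numbers per Ensembl identifier. Per the submitters' processing notes, FastQC 0.10.1, HTSeq 0.10.0 and the builds GRCm38 and mm10 were used, while which aligner, annotation release and strand setting were used is not given in the sources used here. Only the 3 PBS columns were read, grouped by the labels.

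CPM are counts over the library total of all rows. TPM used the union of exons in GENCODE M21 (GRCm38), which matched 21939 identifiers (99.9%). Python 3.11.15 with pandas 2.3.3 gave levels, sums and CVs, and edgeR 4.0.16 under R 4.3.3 the biological coefficient of variation (intercept only, filterByExpr, TMM). The estimate was checked on simulated counts of genes at 5 CPM or more that shared 1 value, without filterByExpr. That check covers neither the filter nor the trend over level. No tests between groups were made. Limits for genes at 0 use 3 counts. Alternatives were other scalings (with DESeq2 1.42.0 size factors), filters and gene lengths, and leaving out each library.

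The markers, the gene lists and the rules were chosen with earlier results of these data known. Named were the 20 genes with the highest CPM and 10 with the highest TPM, the 25 with the highest and 15 with the lowest CV at 20 CPM or more (predicted and unnamed genes passed over), up to 6 members of each list by level, list members among the 5% most variable genes, the 6 markers and the Y-linked genes. A few genes under this rule are left out of the text. Chosen after their values were seen were Adgre4, Atf3, Atp6v0d2, Cd274, Ddx3x, Eif2s3x, Kdm5c, Kdm6a, Egr1, Epcam, Epx, Fcer1a, Mcpt4, Fabp4, Folr2, Igf1, Il10, Il12b, Itgam, Itgb1, Jun, Ly6c1, Ly6g, Maf, Marco, Mertk, Mpo, Ms4a7, Nr4a2, Nr4a3, Pparg, Ptgs2, Siglecf, Spi1, Tap1, Timd4, Tlr7, Tmem119, Tnf, Trem2 and Treml4. Of the named genes, Arg2, Cdc73, Cebpb, Cers2, Csf1r, Ctsb, Ctsd, Cxcl10, Dusp1, Gapdh, Grn, Hspa1a, Irf5, Irf7, Itgam, Junb, Prg4, Son and Tap1 share exon positions with another counted gene.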

Additional observations from a re-analysis of the deposited data

How the results depend on the processing

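No paired analysis was possible because a single group was described. Genes at 1 CPM or more in every library numbered 11294, and between 9367 and 11933 under other thresholds and without each library in turn. The 10 most abundant genes took 6.29% of the counts, 6.49% without ribosomal protein genes and 8.44% without genes whose exons overlap another gene, and 6.22% to 6.33% when a library was left out. The biological coefficient of variation of 0.151 was 0.174 with no filter on low counts and ran from 0.133 to 0.176 when a library was left out, the highest without PBS replicate 1. The median CV of the list sums was 6.99%, and 4.56% to 6.02% when a library was left out. All 264 other values of the list sums moved by less than their SD between libraries, but this limit could hardly be passed. Leaving out 1 of 3 libraries cannot move a mean by its SD, and the TMM factors were only 0.987 to 1.014. The count is thus no measure of robustness. The CV of 6 lists moved by over 1.5 times with TMM scaling, among them the immediate-early list at 2.89% instead of 1.63%. The cause of these moves was not tested.

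Of the 25 genes of highest CV, 8 were still among the first 25 at a minimum of 5 CPM, 12 at 50 CPM, 22 by the SD of log2(CPM + 2) and 25 with TMM scaling. By construction a lower minimum admits scarcer genes and a higher one removes some. Per length, the longest transcript in place of all exons gave 1375 TPM for C1qa (1738 to 1927 when a library was left out), 1259 for Ace (1457 to 1568) and 107 for Fcgr1 (129 to 148). With library totals alone PBS replicate 2 was the lowest library for 41.5% of genes at 5 CPM or more, and with TMM scaling for 36.0%, and PBS replicate 1 was the highest for 35.3% and 29.1%. Genes under 1 CPM had a median CV of 98.7%, beside 50% from counting alone, so depth limits the precision of their values most.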

Other observations

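Several lists not described above lay at low or even levels in the 3 PBS libraries. Fibroblast and smooth muscle genes summed to 443, 518 and 512 CPM, most of it Gsn, which encodes the actin-severing gelsolin that macrophages also make, with 285, 300.3 and 319 CPM. The collagen gene Col3a1 had 22.5, 34.1 and 32.6 CPM and Sparc had 30.3, 52 and 31 CPM. Erythroid and platelet genes summed to 252, 319.8 and 351 CPM, led by the globin Hbb-bs with 98.3, 135 and 154 CPM. Pf4 is on this list and also on the interstitial macrophage list, so the sum is not that of these cells alone. Of the erythroid and platelet genes at 5 CPM or more, 5 of 6 were lowest in PBS replicate 1, against 23.5% of all genes. Hbb-bs exceeded Hba-a1 by 2.87 ± 0.147-fold in TPM. Plasmacytoid dendritic cell genes summed to 184, 178 and 205 CPM, and Siglech, their defining receptor, had 4.96, 4.97 and 6.78 CPM, while Ccr9 had 9.77, 1.80 and 8.55 CPM. B and plasma cell genes summed to 204, 168 and 182 CPM, of which Cd22 had 76.7, 79.6 and 74 CPM and Cd79a had 14.4, 10.6 and 12.7 CPM. The mesothelial list held 1 gene at 5 CPM or more, the keratin Krt19, with 140.0, 122 and 86.7 CPM. Krt19 is also on the alveolar macrophage list, so its level is not that of mesothelial cells alone. Wt1 had no count in any library.

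Genes of the respiratory chain encoded in the nucleus summed to 3106, 2929.6 and 3099.8 CPM, and 18 of 30 were highest in PBS replicate 3, against 34.8% of all genes. Atp5b and Atp5a1, the catalytic core of ATP synthase, had 569, 499.5 and 533 CPM and 452, 449 and 454 CPM. Glycolytic genes summed to 3913, 4008 and 3937 CPM, with Pkm, pyruvate kinase, at 717, 744 and 766 CPM and Aldoa, aldolase, at 682, 684 and 655 CPM. Ldha, lactate dehydrogenase, was highest in PBS replicate 2 with 291, 344 and 269.7 CPM. Mitochondrially encoded genes were not analysed here.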
